A study of Capra hircus with 72 samples.

Results

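The genes described are 10 components of the circadian clock, CLOCK, PER1, PER2, PER3, CRY1, CRY2, NR1D1, NR1D2, DBP and CIART. They were chosen by gene name, with earlier results of these data known. Each had exactly 1 row among the 21343 protein-coding genes of the deposited goat table. RNA was sequenced from the brains of female goats (Capra hircus) kept under 3 conditions. The controls breathed room air for 14 days, mild chronic hypercapnia (Mild CH) was 14 days at 6% inspired CO2, and moderate chronic hypercapnia (Moderate CH) was 7 days at 6% followed by 7 days at 8%. One forebrain region was sampled, mPFC (medial prefrontal cortex). The brainstem regions, all part of respiratory control, were RTN (retrotrapezoid nucleus), VRC (ventral respiratory column) and NTS (nucleus of the solitary tract). Each of the 12 groups held 6 libraries, 72 in all, and the series text gives 6 animals per condition. The sources used here do not state the age or strain of the goats or the hour at which tissue was taken. The labels do not say that libraries with the same replicate number came from the same goat. In deviations from the group mean, 70 of 72 libraries were most like those of their own number in the other regions of their condition.

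The circadian clock is a feedback loop of transcription that runs in most cells with a period of about a day. CLOCK pairs with ARNTL (also called BMAL1) and switches on the PER and CRY genes, whose proteins return to the nucleus and repress CLOCK and ARNTL. The same pair drives NR1D1 and NR1D2, nuclear receptors that repress ARNTL, the output transcription factor DBP, and CIART, a further repressor of CLOCK and ARNTL. Because these transcripts rise and fall through the day in many tissues, their level in a single sample depends on the hour of sampling, and several of them, PER1 in particular, also respond to glucocorticoids. Clocks of this kind run outside the suprachiasmatic nucleus too, in cortex and brainstem.

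Libraries held 12838991 to 31884742 counts. Region identity was read from markers in room air. SLC17A7, the vesicular glutamate transporter of cortical neurons, averaged 761 CPM (counts scaled to library size) in mPFC and 6.31 to 56.6 CPM in the brainstem regions, while HOXA4, a gene of the hindbrain and spinal cord, averaged 0.0342 CPM in mPFC and 8.42 to 44.7 CPM in the brainstem. The regions also differed in cell makeup: 9 myelin and oligodendrocyte markers together took 2020 to 7670 CPM in mPFC, against 7770 to 34700 in NTS, 39300 to 53300 in VRC and 22600 to 34500 in RTN, and none of them was at 0. In such bulk tissue a lower value from fewer cells of a type and one from less RNA per cell cannot be told apart.

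All 10 clock genes were detected in every library, at very unequal levels. In the deposited table they lie on chromosomes 6 (CLOCK), 19 (PER1 and NR1D1), 3 (PER2 and CIART), 16 (PER3), 5 (CRY1), 15 (CRY2), 27 (NR1D2) and 18 (DBP). On the deposited RPKM scale, which divides by the deposited gene length, DBP ranked first in room air mPFC at 93.3 ± 14.7 RPKM (SD, n = 6). CRY2 followed at 47.5 ± 5.44 RPKM and NR1D1 at 32.5 ± 3.27 RPKM. This order rests on the deposited lengths, 978 bases for DBP, 6104 for CRY2 and 1851 for NR1D1. For 89.7% of genes the deposited length exceeded the deposited start-to-end span. Without division by length, CRY2 (282 CPM) exceeded DBP (88.8 CPM) in room air mPFC. CIART stood at 14.7 ± 1.92, PER1 at 9.77 ± 0.994, NR1D2 at 8.73 ± 4.85 and PER3 at 8.22 ± 1.15 RPKM, with the last 3 within their spread of each other. PER2 (3.69 ± 0.612 RPKM) and CLOCK (2.88 ± 0.573 RPKM) were low. CRY1, the partner of PER proteins in the repressor complex, was the scarcest at 0.386 ± 0.181 RPKM, with only 9 to 95 counts in any library, so its values carry the largest counting error. In the room air RTN the same 3 genes led, DBP at 56.6 ± 6.77, CRY2 at 25.5 ± 0.749 and NR1D1 at 23.4 ± 3.04 RPKM, and CRY1 was again last at 0.402 ± 0.179 RPKM.

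**Figure D1:**
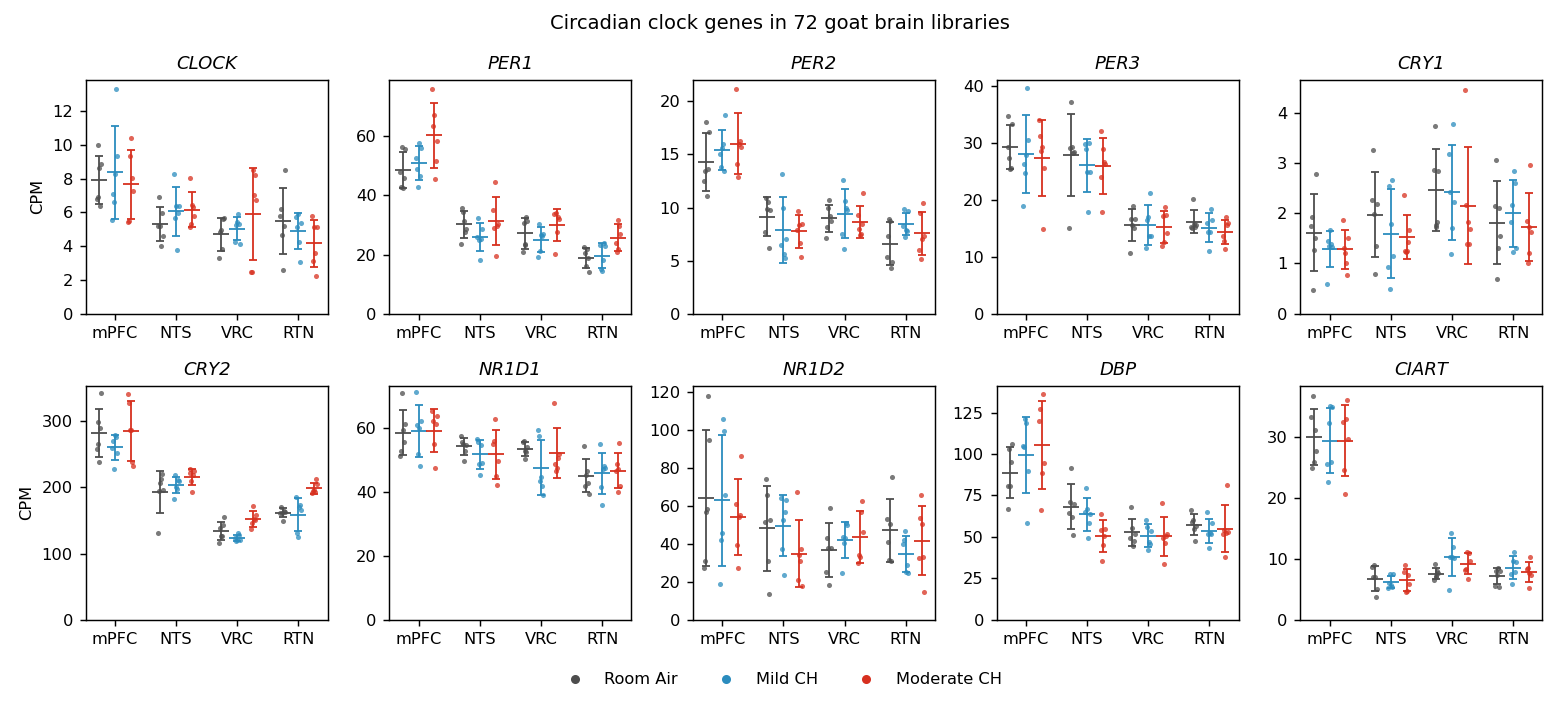
CPM of the 10 clock genes in each of 72 libraries (points), with group mean and SD (bars, n = 6), by region on the x axis and by condition in colour (grey room air, blue Mild CH, red Moderate CH). CIART, PER1, PER2 and CRY2 are highest in mPFC, and within each region the 3 conditions lie close together for most genes.

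The first comparison asked where in the brain each clock gene was most abundant when the goats breathed room air. Most of the loop was higher in cortex than in brainstem. Of the 10 genes, 8 were called higher in mPFC than in the mean of NTS, VRC and RTN and none lower (edgeR quasi-likelihood test, Benjamini-Hochberg adjusted p under 0.05 over 15700 genes), where 30.9% of all genes were called higher and 30.1% lower. Their median log2 difference was 0.60, against -0.01 over all genes tested. CIART differed most, 4.16-fold, while NR1D1 differed least among those called. NR1D2 and CRY1 were not called. For 4 of the 10, PER1, PER2, CRY2 and CIART, every mPFC library lay above every brainstem library, against 17.1% of all genes that separated in either direction. In a test for any difference among the 4 regions, 8 of the 10 were called, against 69.2% of all genes.

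The driver CLOCK had a lowest, median and highest value of 6.35, 7.77 and 9.99 CPM in mPFC, against 4.03, 5.20 and 6.92 CPM in NTS, 3.28, 4.91 and 5.65 CPM in VRC, and 2.60, 5.49 and 8.49 CPM in RTN. The ranges overlapped between mPFC and both NTS and RTN, but not between mPFC and VRC. CLOCK was higher in mPFC than in the brainstem mean by 0.60 ± 0.16 on the log2 scale (SE, edgeR adjusted p = 0.00244), and no pair of brainstem regions was called for it.

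Among the period genes, PER1, the member induced most rapidly by light, activity and hormones, ran from 42.6 to 56.4 CPM in mPFC (median 46.9), against 23.4 to 35.7 CPM in NTS (median 30.1), 21.0 to 32.8 CPM in VRC (median 27.1) and 14.0 to 22.7 CPM in RTN (median 19.6). Every mPFC library lay above every brainstem library, and RTN libraries lay below all NTS libraries. The log2 difference was 0.95 ± 0.10 for mPFC over the brainstem mean (edgeR adjusted p = 2.53e-08). RTN was below NTS by 0.63 ± 0.13 (fold 0.64, adjusted p = 0.00139) and below VRC by 0.49 ± 0.13 (fold 0.71, adjusted p = 0.0151). NTS and VRC were not called different (adjusted p = 0.449). PER2, the other light-responsive period gene, had 11.1 to 18.1 CPM in mPFC (median 13.5), against 4.32 to 10.9 CPM over the 18 brainstem libraries (median 8.76). Here too mPFC did not overlap the brainstem, with a log2 difference of 0.80 ± 0.14 (adjusted p = 2.92e-05), and among brainstem regions PER2 was not called.

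PER3, which is less essential for rhythm in mice than its relatives, had another pattern. It measured 25.5 to 34.7 CPM in mPFC (median 28.3), against 15.0 to 37.3 CPM in NTS (median 28.8), 10.6 to 18.9 CPM in VRC (median 16.1) and 15.0 to 20.2 CPM in RTN (median 15.4). NTS thus reached cortical levels, apart from replicate 1 at 15.0 CPM, while VRC and RTN stayed below all mPFC libraries. The mPFC over NTS difference was 0.08 ± 0.15 (fold 1.06, 95% interval 0.86 to 1.30, adjusted p = 0.682). PER3 was higher in mPFC than in VRC by 0.90 ± 0.15 (adjusted p = 1.7e-05) and than in RTN by 0.83 ± 0.15 (adjusted p = 5.92e-05). NTS exceeded VRC by 0.82 ± 0.15 (adjusted p = 0.000211), and RTN was below NTS (log2 -0.74 ± 0.15, adjusted p = 0.000896). RTN and VRC were not called different (adjusted p = 0.785).

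The cryptochromes diverged. CRY2, the more abundant, measured 239, 277 and 342 CPM (lowest, median and highest) in mPFC, against 131, 202 and 220 CPM in NTS, 116, 133 and 155 CPM in VRC, and 149, 162 and 170 CPM in RTN. Cortex did not overlap any brainstem region, and the mPFC over brainstem difference was 0.79 ± 0.08 (edgeR adjusted p = 3.2e-09). NTS exceeded VRC by 0.51 ± 0.10 (adjusted p = 0.000363), and RTN exceeded VRC by 0.29 ± 0.10 (adjusted p = 0.0486), a call that was lost in 10 of 12 fits that left out 1 library (adjusted p = 0.0592 to 0.105; it held without RTN replicate 4 or VRC replicate 6, and was also lost with DESeq2, adjusted p = 0.0635). RTN was not called different from NTS (adjusted p = 0.121), but was called lower without NTS replicate 1 (log2 -0.32, adjusted p = 0.0039), the library with the lowest CRY2 of its group. CRY1 had no such gradient: it averaged 1.62 ± 0.762 CPM in mPFC and 1.81 to 2.46 CPM in the brainstem regions, with ranges that overlapped between all of them (log2 -0.37 ± 0.31, adjusted p = 0.315).

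The nuclear receptor NR1D1, also known as REV-ERB alpha, was the most even of the genes called. It had 51.3 to 70.8 CPM in mPFC (median 57.6), against 49.8 to 57.6 CPM in NTS (median 54.8), 50.2 to 55.9 CPM in VRC (median 53.3) and 39.5 to 54.3 CPM in RTN (median 44.0). Only RTN stood low: mPFC exceeded RTN by 0.34 ± 0.08 (edgeR adjusted p = 0.00116), while mPFC was not called different from NTS (adjusted p = 0.267) or VRC (adjusted p = 0.229). RTN below NTS narrowly missed the threshold (log2 -0.23 ± 0.08, adjusted p = 0.0506), and RTN below VRC was not called (log2 -0.23, adjusted p = 0.0695). Of 17 alternative fits each, 7 called NR1D1 lower in RTN than in NTS and 6 than in VRC. Both sets included DESeq2, limma voom, RLE factors, no filter on low counts and the replicate block. Its relative NR1D2 (REV-ERB beta) varied widely within groups, from 27.1 to 118 CPM among the 6 mPFC libraries, 13.5 to 74.3 CPM in NTS, 18.4 to 59.1 CPM in VRC and 31.0 to 75.4 CPM in RTN. No regional difference was called for it (mPFC over brainstem 0.54 ± 0.29, adjusted p = 0.112).

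Of the outputs, DBP, an activator of genes with D-box elements, had 66.8, 88.0 and 106 CPM in mPFC, against 51.0, 67.1 and 91.8 CPM in NTS, 44.8, 50.6 and 67.9 CPM in VRC, and 47.4, 57.7 and 66.5 CPM in RTN. Ranges overlapped between mPFC and NTS and, at 1 end, VRC, but not RTN. The mPFC over brainstem difference was 0.57 ± 0.10 (edgeR adjusted p = 3.5e-05). NTS exceeded VRC by 0.35 ± 0.13 (adjusted p = 0.0385), and this call was lost without any 1 of NTS replicates 1, 2, 3 and 6 and VRC replicates 1, 4, 5 and 6 (adjusted p = 0.0544 to 0.13). CIART measured 24.9, 29.5 and 36.8 CPM in mPFC, against 3.69, 7.05 and 8.95 CPM in NTS, 6.49, 7.45 and 9.13 CPM in VRC, and 5.44, 7.64 and 8.47 CPM in RTN. It formed 2 levels without overlap, cortex and brainstem, at a fold of 4.16 (95% interval 3.48 to 4.97, log2 2.06 ± 0.13, adjusted p = 1.29e-12), and the 3 brainstem regions were not called different from each other.

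Counted by pair, 6 of the 10 genes were called higher in mPFC than in NTS (24.5% of all genes), 7 than in VRC (30.9%) and 8 than in RTN (26.9%), with none called lower in any of the 3 (23.7%, 29.4% and 27.9% of all genes). Within the brainstem, 3 were called higher in NTS than in VRC (17.6%) and none lower (15.4%), 2 were called lower in RTN than in NTS (10.4%) and none higher (11.2%), and RTN against VRC gave 1 higher (9.1%) and 1 lower (5.57%). The libraries of a pair did not overlap for 24.1% of all genes between mPFC and NTS, 37.5% between mPFC and VRC, 35.9% between mPFC and RTN and 7.45% between RTN and NTS. With the replicate number as a block, 4 genes rather than 2 were called between RTN and NTS and 4 between RTN and VRC. The shares of all genes above are from the fit without the block. Those under the block are not given here, so the higher counts are not read as particular to the clock genes. NR1D1 and PER2 were then called lower in RTN than in NTS (edgeR adjusted p = 0.0382 and 0.0365) and than in VRC (0.0494 and 0.0445). Under CO2 the cortex stayed first: mPFC held the highest mean CPM of 9 of the 10 genes in room air, in Mild CH and in Moderate CH, and VRC held the highest of CRY1 in each. CRY2 kept the order mPFC, NTS, RTN and VRC in all 3 conditions, while CLOCK was higher in RTN than in NTS and VRC in room air and lower there than in both in each CO2 group. These orders of means in the CO2 groups were not tested.

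The remaining genes of the clock pathway, 23 with a row and tested, included larger cortical differences than any member. In mPFC over the brainstem mean, 14 were called higher and 2 lower, where 30.9% of all genes were called higher and 30.1% lower. NPAS2, which can take the place of CLOCK in forebrain, had 56.1 to 118 CPM in mPFC, against 6.89 to 23.4 CPM in the brainstem (log2 2.88 ± 0.12, edgeR adjusted p = 6.96e-16). HLF, a bZIP relative of DBP, had a median of 56.6 CPM in mPFC, against 10.4 CPM in the brainstem (2.43 ± 0.11, adjusted p = 1.02e-15). BHLHE40, a repressor that competes for the sites of CLOCK and ARNTL, had 170 to 261 CPM in mPFC, against 46.3 to 91.3 CPM (1.54 ± 0.08, adjusted p = 4.21e-14). ARNTL itself was higher by 1.28 ± 0.08 (adjusted p = 1.04e-12), so both partners of the driving pair were higher in cortex. BHLHE41, the paralogue of BHLHE40, was lower in mPFC (log2 -1.81 ± 0.26, adjusted p = 1.49e-06).

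**Figure D2:**
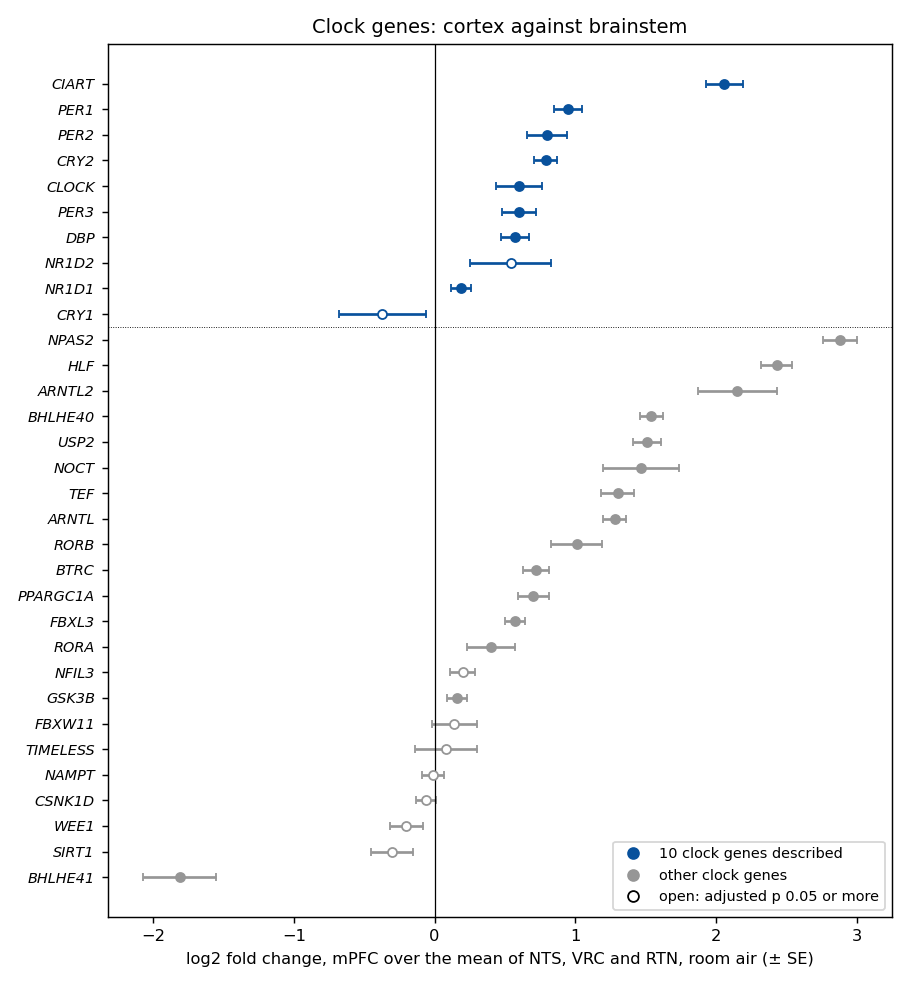
Log2 fold change (± SE) of the 10 clock genes (blue) and of other clock genes (grey) in mPFC over the mean of NTS, VRC and RTN in room air, 6 mPFC and 18 brainstem libraries; open circles were not called at an adjusted p under 0.05. Among the 10, CIART lies furthest right at 2.06 and CRY1 is the only gene left of 0, at -0.37.

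The second comparison, which the series text names as the one the study made, asked how expression differed under CO2. None of the 10 clock genes was called in any of the 12 comparisons of conditions within a region, nor in the 3 comparisons of counts summed over the 4 regions, nor in the 3 tests of whether the regions responded differently (edgeR quasi-likelihood test with Benjamini-Hochberg adjustment). Hardly any gene was: the share called was 0% in every one of these comparisons except Moderate CH against room air in NTS, where 1 gene, which is not a clock gene, made 0.00649%. For Mild CH over room air, 3.45% of all genes in mPFC, 4.66% in NTS, 6.59% in RTN, 5.79% in the summed counts and 2.4% in the test among regions had an unadjusted p under 0.05, and none of the 10 clock genes did. In the test among regions for Moderate CH over Mild CH the share was 4.14%, again with none of the 10. At an unadjusted p under 0.05, 16 of 180 tests of the 10 genes were passed by edgeR, while the share of all genes that passed ran from 2.1% to 15.5% over the same 18 comparisons. The 16 are not independent, since the summed counts and the tests among regions use the same libraries again. DESeq2 also passed 16, with 1 adjusted p under 0.05, and limma voom 20 with none. All 40 log2 fold changes of Moderate CH over room air (10 genes in 4 regions) lay between -0.47 and 0.43, and all 40 of Mild CH over room air between -0.43 and 0.47. Those of Moderate CH over Mild CH lay between -0.51 and 0.37. Data were also simulated with the same depths and spread for Mild CH against room air within a region. A 2-fold change was then called for 65.7% to 74.6% of genes and a 1.5-fold change for 29.9% to 38.8%. These shares are over genes of all levels and spreads. Many genes were changed at once in the simulation, which loosens the Benjamini-Hochberg threshold, whereas hardly any gene was called in the real comparisons. The shares therefore do not apply to a lone changed gene. The smallest unadjusted p values belonged to CRY2, PER1, DBP and CIART.

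**Figure D3:**
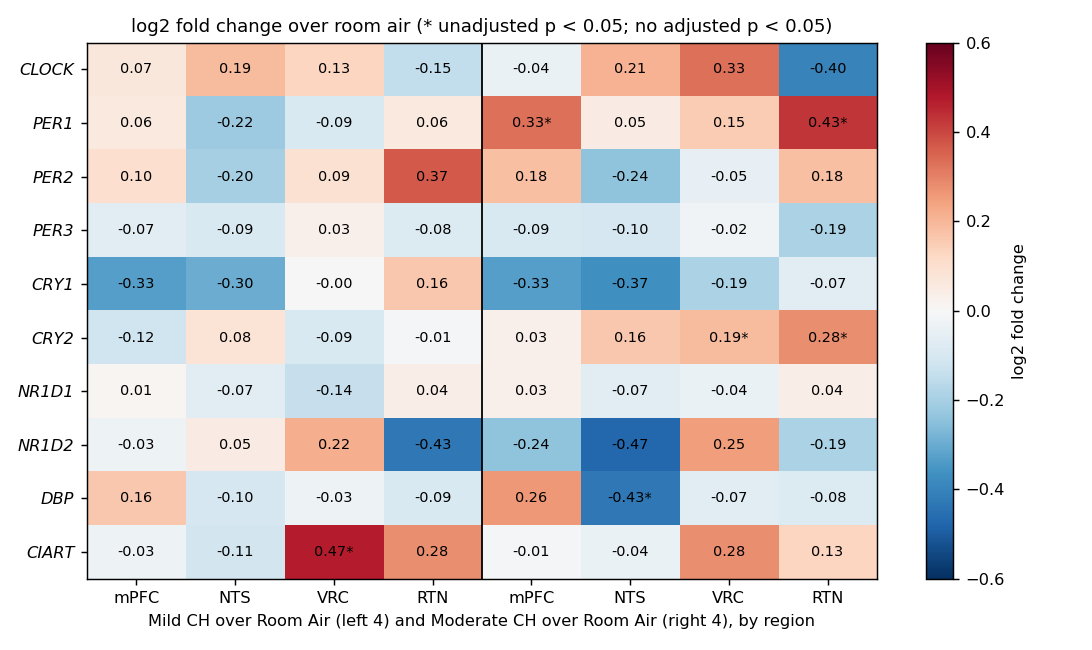
Log2 fold change of each clock gene over room air in Mild CH (left 4 columns) and Moderate CH (right 4 columns), by region; the sides share the room air libraries. Asterisks mark an unadjusted p under 0.05, which 5 values of Moderate CH and 1 of Mild CH reached, and none had an adjusted p under 0.05.

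CRY2 was the clock gene whose libraries separated most cleanly by CO2. In RTN it had 191, 196 and 213 CPM (lowest, median and highest) in Moderate CH, against 149, 162 and 170 CPM in room air. All 6 Moderate CH libraries lay above all 6 room air libraries, a separation shared by 0.437% of genes. The log2 difference was 0.28 ± 0.08 (fold 1.22, 95% interval 1.09 to 1.37), with an edgeR adjusted p of 0.515 (unadjusted p under 0.05, as for 7.38% of genes). Mild CH libraries of RTN had 125, 168 and 186 CPM, and again none reached the Moderate CH range, as for 0.834% of genes (log2 0.30 ± 0.08 for Moderate CH over Mild CH, edgeR adjusted p = 0.21; unadjusted p under 0.05, as for 10.6% of genes). These 2 comparisons share the Moderate CH libraries.

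In VRC, CRY2 had 137, 151 and 172 CPM in Moderate CH, against 119, 121 and 131 CPM in Mild CH. The groups did not overlap, as for 0.627% of genes, and the log2 difference was 0.28 ± 0.08 (fold 1.21, 95% interval 1.09 to 1.35, edgeR adjusted p = 0.147; unadjusted p under 0.05, as for 15.5% of genes). DESeq2 called this difference (adjusted p = 0.0271), the only call for any of the 10 genes between conditions by edgeR, DESeq2 or limma voom with all libraries. The share of all genes that DESeq2 called in this comparison is not given here, so the call is not read as particular to CRY2. Against room air (116, 133 and 155 CPM) the Moderate CH libraries overlapped, with a log2 difference of 0.19 ± 0.08 (edgeR adjusted p = 0.864; unadjusted p under 0.05, as for 5.67% of genes). In the other regions the values were closer: NTS had 193, 220 and 228 CPM in Moderate CH, against 131, 202 and 220 CPM in room air (log2 0.16), and mPFC had 232, 286 and 341 CPM in Moderate CH, against 239, 277 and 342 CPM in room air (log2 0.03). Averaged over the 4 regions by replicate number, CRY2 stood at 205 to 224 CPM in Moderate CH, against 168 to 197 CPM in Mild CH and 167 to 214 CPM in room air. The Moderate and Mild CH ranges did not overlap (0.645% of genes). In the fit of summed counts the log2 difference was 0.14 ± 0.05 over Mild CH (edgeR adjusted p = 0.543; unadjusted p under 0.05, as for 8.95% of genes) and 0.13 ± 0.05 over room air (edgeR adjusted p = 0.801; unadjusted p under 0.05, as for 6.03% of genes).

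Astrocyte markers varied with CRY2. Over the 72 libraries its deviations from the group mean had a Pearson r of 0.54 with the mean deviation of 7 astrocyte markers, above its r with neuron markers (-0.16) or myelin markers (-0.27). In VRC the 7 astrocyte markers together took 6040 to 10900 CPM in Moderate CH, against 3760 to 8300 CPM in Mild CH and 4680 to 11300 CPM in room air. In RTN they took 12900 to 18400 CPM in Moderate CH, against 7240 to 23500 CPM in Mild CH and 11600 to 20900 CPM in room air. Their ranges overlapped in each pair and none of the 7 was at 0. At an unadjusted edgeR p under 0.05, 2 of the 7 were passed in Moderate CH over room air in RTN (median log2 -0.07), beside 7.38% of all genes. In Moderate over Mild CH in VRC 1 of the 7 was passed (median log2 0.24), beside 15.5% of all genes. Their part in the CRY2 values was not tested. With the myelin markers as a covariate, the CRY2 difference of Moderate CH over room air in RTN was 0.27 (edgeR adjusted p = 0.336). That covariate was added after seeing the data, and no fit took the astrocyte markers as a covariate. The part of the myelin markers in the CRY2 values was not tested.

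**Figure D4:**
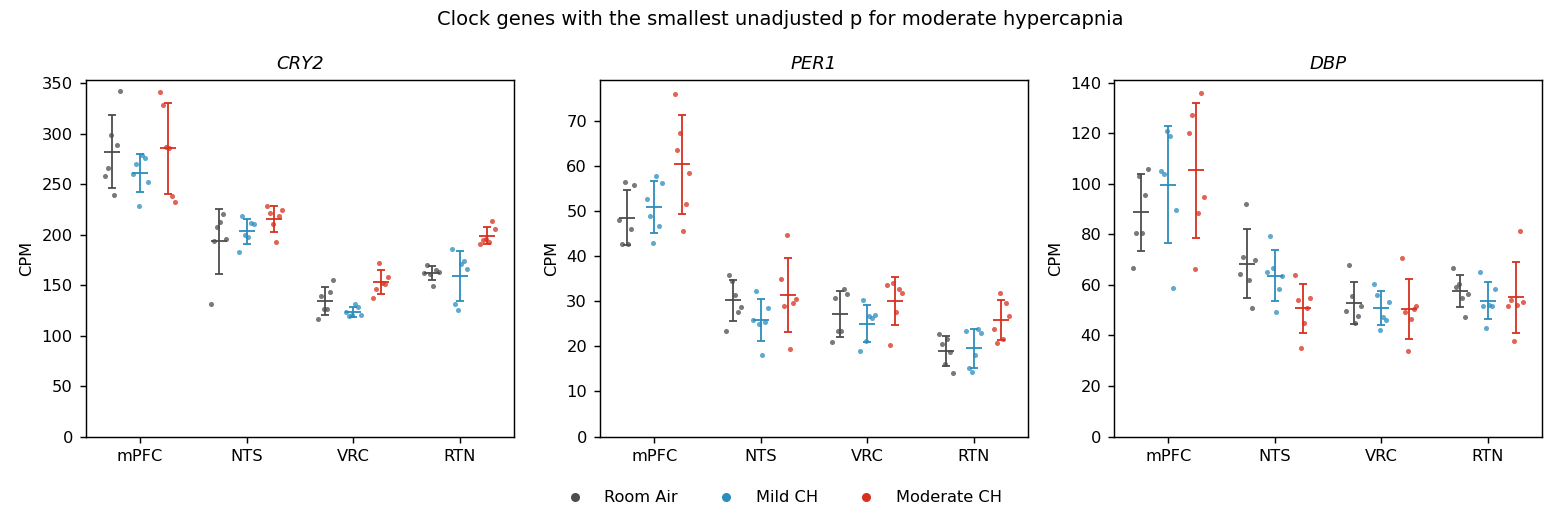
CPM of CRY2, PER1 and DBP in each library (points) with group mean and SD (bars, n = 6), by region and condition. For CRY2 in RTN the 6 Moderate CH points at 191 to 213 CPM sit above all room air points at 149 to 170 CPM, whereas the groups of PER1 and DBP overlap in every region.

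PER1 had a positive log2 difference of Moderate CH over room air in all 4 regions, without any adjusted call. In mPFC it had 45.6, 61.0 and 76.0 CPM in Moderate CH, against 42.6, 46.9 and 56.4 CPM in room air, and 5 of 6 libraries lay above the room air median. The log2 difference was 0.33 ± 0.12 (fold 1.26, 95% interval 1.07 to 1.47, edgeR adjusted p = 1.00; unadjusted p under 0.05, as for 2.1% of genes). In RTN it had 20.7, 25.3 and 31.8 CPM in Moderate CH, against 14.0, 19.6 and 22.7 CPM in room air, with all 6 above the room air median but overlapping ranges (log2 0.43 ± 0.16, fold 1.35, 95% interval 1.09 to 1.66, edgeR adjusted p = 0.618). Against Mild CH, PER1 in Moderate CH differed by 0.37 ± 0.16 in RTN (14.4, 20.5 and 23.8 CPM in Mild CH, edgeR adjusted p = 0.411) and by 0.27 ± 0.12 in mPFC (42.9, 50.8 and 57.8 CPM in Mild CH, edgeR adjusted p = 0.954; unadjusted p under 0.05, as for 4.71% of genes).

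In NTS the log2 difference of PER1 over room air was 0.05 and in VRC 0.15. Averaged over the 4 regions, PER1 had 28.6, 36.4 and 44.4 CPM in Moderate CH, against 28.8, 31.8 and 32.6 CPM in room air. That is 5 of 6 replicate numbers above the room air median, with a wider spread under Moderate CH (log2 0.22 ± 0.08 in the summed fit, edgeR adjusted p = 0.783). Over Mild CH (25.8, 30.3 and 33.7 CPM) the summed fit gave the same log2 difference, 0.22 ± 0.08 (edgeR adjusted p = 0.543). The 10 measured glucocorticoid-responsive genes summed to 686 to 1000 CPM in Moderate CH RTN, against 616 to 960 CPM in room air RTN. Over the 72 libraries PER1 had an r of 0.37 with this list, beside -0.38 with neuron markers and 0.29 with astrocyte markers. Of the 10, 4 had an unadjusted edgeR p under 0.05 in Moderate CH over room air in RTN, as had 7.38% of all genes. None of the 10 was at 0, and the directions of the 4 are not given here. In mPFC the list summed to 502 to 661 CPM in Moderate CH, against 533 to 787 CPM in room air. Their part in the PER1 values was not tested.

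For DBP the smallest p belonged to NTS. It had 35.2, 52.4 and 63.9 CPM in Moderate CH, against 51.0, 67.1 and 91.8 CPM in room air, and all 6 Moderate CH libraries lay below the room air median although the ranges overlapped. The log2 difference was -0.43 ± 0.15 (fold 0.74, 95% interval 0.61 to 0.90, edgeR adjusted p = 0.33; unadjusted p under 0.05, as for 13.4% of genes). Against Mild CH in NTS (49.1, 64.3 and 79.4 CPM) it was -0.34 ± 0.15 (edgeR adjusted p = 1.00; unadjusted p under 0.05, as for 4.02% of genes). In mPFC the sign was the other way, 66.3 to 136 CPM in Moderate CH against 66.8 to 106 CPM in room air (log2 0.26), and VRC (-0.07) and RTN (-0.08) were near 0. The test of whether the response differed among regions gave DBP an unadjusted p under 0.05, as for 3.83% of genes, and an edgeR adjusted p of 1.00. In that NTS comparison 8 of 9 myelin markers had an unadjusted p under 0.05 and none was called (median log2 -0.88). They summed to 3960 to 14900 CPM in Moderate CH, against 7770 to 34700 CPM in room air, and none was at 0. With their level as a covariate the DBP difference was -0.27 (edgeR unadjusted p = 0.0804, adjusted p = 0.999). That covariate was added after seeing the data and itself ran lower in Moderate CH. The fit therefore cannot tell myelin level and condition apart. Over the 72 libraries the deviations of DBP had an r of -0.01 with the myelin markers and -0.39 with the neuron markers. The part of the myelin or neuron markers in the DBP values was not tested.

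CIART gave the only unadjusted p under 0.05 for Mild CH over room air within a region. In VRC it had 4.90, 10.4 and 14.3 CPM in Mild CH, against 6.49, 7.45 and 9.13 CPM in room air, so that the Mild CH libraries spanned the whole room air range (log2 0.47 ± 0.19, edgeR adjusted p = 0.759; unadjusted p under 0.05, as for 6.23% of genes). The other 6 genes had no unadjusted p under 0.05 in any comparison of conditions. Among them, CLOCK differed from room air by 0.33 in VRC and -0.40 in RTN under Moderate CH, PER2 by 0.37 in RTN under Mild CH, PER3 by -0.19 at most, NR1D1 by -0.14 at most, CRY1 by -0.37 in NTS under Moderate CH, and NR1D2 by -0.47 in NTS under Moderate CH and -0.43 in RTN under Mild CH. Over the 40 values of Moderate CH over room air, the lowest lower bound of any 95% interval was a fold of 0.45 and the highest upper bound, of another value, a fold of 1.81.

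The other 23 clock genes were likewise without an adjusted call between conditions. In the summed counts 3 of the 23 had an unadjusted p under 0.05 in Moderate CH over room air, as had 6.03% of all genes: USP2, a deubiquitinase acting on clock proteins (log2 0.27 ± 0.11, edgeR adjusted p = 0.801), BHLHE41 (-0.29 ± 0.12, adjusted p = 0.801) and BHLHE40 (0.17 ± 0.08, adjusted p = 0.812). The median log2 difference was -0.01 over these 23 and 0.01 over the 10.

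The third question was whether the clock genes varied together from library to library once region and condition were taken out. The deviations of log2 CPM from the group mean were correlated over the 72 libraries, which share their preparation and differ in depth, so the values are descriptions without a test. The strongest ties among the 10 were of PER1 with CRY2 (Pearson r 0.52), PER3 with CRY2 (0.51), NR1D1 with DBP (0.51), PER1 with NR1D1 (0.46) and PER2 with DBP (0.46). PER1 and CRY2 had an r of 0.45 to 0.62 within each of the 4 regions (18 libraries each), whereas NR1D1 and DBP had 0.57, 0.70 and 0.62 in mPFC, VRC and RTN but 0.08 in NTS. ARNTL, whose protein is repressed in the loop, was at -0.19 with both NR1D1 and DBP, with a range over regions of -0.58 to 0.29 for DBP. CLOCK was negative with NR1D1 (-0.34) and DBP (-0.32) over the 72 libraries. Both were negative in mPFC (-0.60 and -0.62), VRC (-0.37 and -0.47) and RTN (-0.38 and -0.33) but positive in NTS (0.21 and 0.35).

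**Figure D5:**
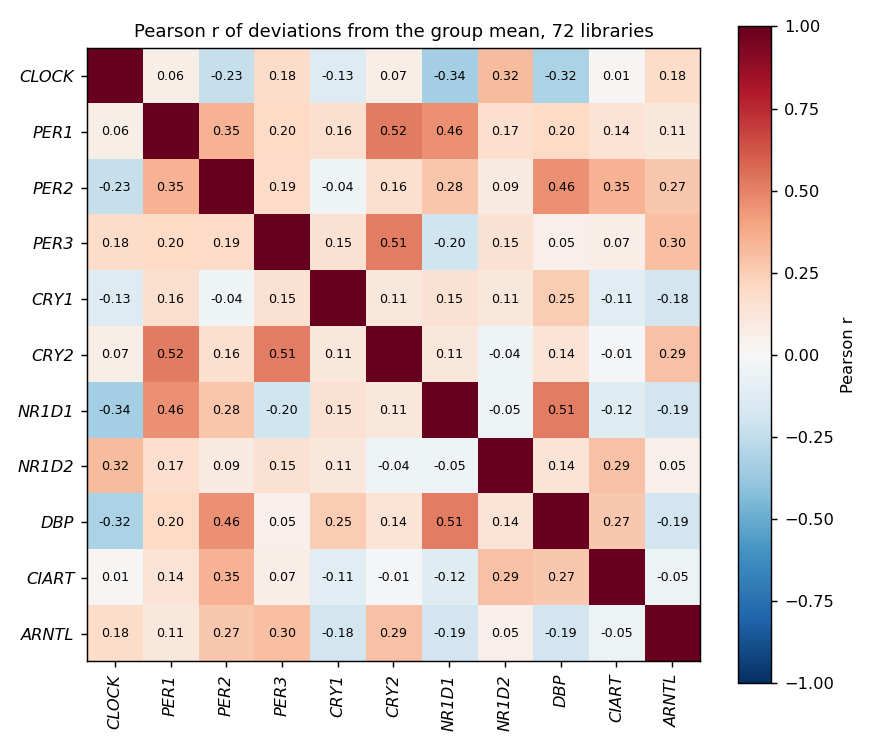
Pearson r between pairs of clock genes, and ARNTL, over the deviations of log2 CPM from the group mean in 72 libraries. The highest value among the 10 genes is 0.52, between PER1 and CRY2, and the lowest is -0.34, between CLOCK and NR1D1.

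Between regions, the same-numbered libraries of a condition were compared, 18 points for each of 6 region pairs. DBP showed the highest median r of the 10, 0.41 (range 0.30 to 0.70), with 84.9% of genes lower. CRY1 followed at 0.36 (0.32 to 0.66), with 79.7% of genes lower. Both were positive in all 6 region pairs, as was NR1D1 (0.10 to 0.46). By Spearman's rho the order of DBP and CRY1 turned, with a median of 0.34 for DBP and 0.52 for CRY1. NR1D1 stood at 0.22, CIART at 0.21, PER3 at 0.18, CRY2 at 0.17, PER1 at 0.14 and PER2 at 0.10, around the median of 0.18 over all genes tested. CLOCK had -0.11. NR1D2 had -0.29, with only 0.2% of genes lower, and ranged from -0.50 to 0.54 between region pairs. For comparison RORA, the receptor that opposes NR1D1 and NR1D2 at ARNTL, had a median r of 0.75.

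NR1D2 was the most variable of the 10 genes, with a within-group SD of 0.657 log2 units. This was larger than that of 96.3% of the 10111 named genes with a mean of at least 5 CPM. CRY2 (0.155, above 10.1%) and NR1D1 (0.176, above 17.6%) were the steadiest of the 10. The genes most like NR1D2 over the 72 libraries included IRGQ (r = 0.94) and ZDHHC2 (0.94), and 23 of the 10111 genes had an r of at least 0.9 with it. No other gene of the 10 clock genes described had any gene at 0.9. Within the loop its best partner was CLOCK, at 0.32, and its r with its paralogue NR1D1 was -0.05.

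For the other members the most similar genes were as follows. CA11, a carbonic anhydrase-related gene, had an r of 0.85 with DBP, and THRA, a thyroid hormone receptor, had 0.76 with NR1D1. Each is the next protein-coding gene to that member on its chromosome (18 for DBP, 19 for NR1D1) in the RefSeq annotation of assembly ARS1.2, without overlap. CRY2 was closest to PCDHGC4 (0.75), ABAT (0.74) and TRIL (0.70), and CLOCK to TRPM7 (0.71), ROCK2 (0.71) and MBNL1 (0.69). PER3 was closest to CARMIL1 (0.71), XPO1 (0.65) and GPD1L (0.63), and PER1 to MAST3 (0.68), SAMD4B (0.65) and TOB2 (0.64). CRY1 was closest to RNF122 (0.60), PTGR1 (0.58) and ZBTB16 (0.55), PER2 to ZNF384 (0.55), PRAG1 (0.55) and ACAP3 (0.54), and CIART to PTPRD (0.51), LSG1 (0.48) and NKTR (0.47). In the same annotation a pseudogene lies within the span of CRY1, and how reads that could belong to either were counted is not stated.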

How the data were processed

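RNA-seq libraries were made from total RNA with the SMARTer Universal Low Input kit, per the labels' protocols. STAR, featureCounts, Trimmomatic, FastQC and edgeR were used by the authors, per the submitters' processing notes; the sources used here do not state versions or the genome build. The authors deposited raw read counts, RPKM values and the gene length per gene for all 72 libraries in 1 table. Counts were tested with edgeR 4.0.16 in R 4.3.3 (TMM factors, filterByExpr with a minimum count of 10, quasi-likelihood F-test, Benjamini-Hochberg over all genes tested, threshold 0.05). Conditions were compared within each region (18 libraries per fit), on counts summed over same-numbered libraries of the 4 regions, which reads a number as 1 animal, and for a response that differs among regions. Regions were compared over the 24 room air libraries. CPM are counts scaled to TMM-adjusted library sizes. Deviations used log2 CPM with a prior count of 2. The 95% intervals are the estimate ± 1.96 SE. Alternatives were DESeq2 1.42.0, limma 3.58.1 voom, RLE factors, no filter, a replicate block, each library left out and, added after seeing the data, a myelin covariate. The edgeR fits were tested on simulated data. The lists and the 10 genes were chosen with earlier results of these data known. Values are given for genes with a p under 0.05 or groups that do not overlap, for up to 3 other clock genes per comparison, and for the 3 genes most like each of the 10. Deviations of libraries that share a number across conditions correlated at a median of 0.021 over 72 pairs (22 over 0.1), so the numbers do not pair conditions. Of the 36 same-numbered pairs of room air regions, 33 exceeded 0.1, all 6 of 6 for mPFC with VRC, NTS with RTN and VRC with RTN. The tests between regions and of the response among regions ignored this pairing unless a replicate block is named. Blocked counts stand beside the results for RTN against NTS and against VRC. No 2 libraries of a group agreed within sampling noise. Where libraries share no stated animal, p-values measure only the spread between these samples. Some genes that these rules would name are not reported here.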

Additional observations from a re-analysis of the deposited data

Results flagged for a closer look

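In 5 of 120 groups of 6 libraries (10 genes in 12 groups) 1 library stood far from the rest of its group. Chance flags about 1 in 20 groups, here 6. CRY1 in VRC Moderate CH replicate 1 was 4.46 CPM, against 1.38 to 2.17 CPM in the other libraries of its group. CRY1 in mPFC Mild CH replicate 1 was 0.581 CPM, against 1.32 to 1.66 CPM. CRY2 in NTS Room Air replicate 1 was 131 CPM, against 194 to 220 CPM. NR1D1 in VRC Moderate CH replicate 1 was 67.8 CPM, against 46.5 to 51.8 CPM. PER3 in RTN Room Air replicate 3 was 20.2 CPM, against 15.0 to 15.8 CPM. The causes were not tested.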

How the results depend on the processing

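Signs were checked only for members with an unadjusted p under 0.05 or groups that did not overlap, at most 5 per comparison. None of these log2 differences changed sign under any alternative run. The signs of the other differences were not checked. Of the counts of genes called, 2 in room air moved by over 1.5 times: RTN against NTS gave 2, with 5 under limma voom and 4 under the replicate block, and RTN against VRC gave 2, with 4 under the replicate block and 1 to 2 when 1 library was left out. In VRC, Moderate CH against Mild CH gave 0 by edgeR and 1 by DESeq2. The shares of all genes called under these alternatives are not given here, so the moved counts are not read as particular to the clock genes. The replicate block changed no other count of calls by over 1.5 times. The causes were not tested. At these depths CRY1, with 9 to 95 counts per library, allows the least precise values.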
